A study of Mus musculus with 11 samples.

Results

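The replication-dependent histone genes encode the core and linker histones that package newly copied DNA. Here they were taken as the protein-coding genes of the raw count table whose GENCODE M21 symbol begins with Hist1h, Hist2h, Hist3h or Hist4. The rule found 67 of the 54232 genes listed: 6 for the linker histone H1, 18 for H2A, 18 for H2B, 12 for H3 and 13 for H4. In the GRCm38 annotation 54 of them lie on chromosome 13, 10 on chromosome 3, 2 on chromosome 11 and 1 on chromosome 6. The chromosome 13 genes span 21715763 to 23934851 and the chromosome 3 genes span 96219865 to 96270132.

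RNA was sequenced in bulk from pieces of 11 pancreatic tumours, 6 grown in KO hosts (A to F) and 5 in WT hosts (A to E). All hosts were female mice on a C57BL/6 background and carried a single copy of RosaCreERT2, a tamoxifen-inducible Cre recombinase expressed from the Rosa26 locus, and all were given tamoxifen. KO hosts were Pkn2 fl/fl and WT hosts Pkn2 +/+. Each host then received 1000 TB32048 cells in the pancreas, a mouse pancreatic ductal adenocarcinoma line from a female KPC mouse with PKN2 intact. The deletion was therefore in host cells only, but in every host tissue, normal pancreas included, and not in a particular stromal cell type. Per the study's methods, hosts were adults matched for age.

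Histone genes of this kind are transcribed in S phase, when DNA is copied. Their pre-mRNAs are typically intronless and are cut just downstream of a conserved stem-loop, so that most mature histone mRNAs end there and carry no poly(A) tail. The stem-loop is bound by SLBP, which is needed for processing, translation and decay of the mRNA. Some members can also be transcribed past the stem-loop to a poly(A) site, which gives a longer, polyadenylated mRNA in cells that are not dividing. Whether the libraries were made by poly(A) selection or by removal of ribosomal RNA is not given in the sources used here.

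The stem-loops are shown because they mark where these mRNAs are usually cut, so that an annotated transcript end can be read relative to them. A search of the annotated 3′ untranslated regions (UTRs) for the histone stem-loop pattern, a stem of 6 base pairs around a loop of 4 bases, found it in 46 of 67 members (68.7%) and in 199 of 20985 other protein-coding genes (0.948%). Capitals mark the 16 bases of the stem and loop and small letters the 5 bases on either side, written 5′ to 3′ as DNA of the coding strand (GENCODE M21 transcripts, GRCm38). Positions are chr13:23739507-23739532 (plus strand) for Hist1h1c, chr13:23683472-23683497 (minus) for Hist1h2ac, chr13:21810893-21810918 (plus) for Hist1h2ao, chr13:23745042-23745067 (minus) for Hist1h3c, chr13:23535884-23535909 (plus) for Hist1h3g, chr13:22040961-22040986 (minus) for Hist1h4i, chr13:23531453-23531478 (plus) for Hist1h4h and chr13:23581945-23581970 (plus) for Hist1h4d.
Hist1h1c: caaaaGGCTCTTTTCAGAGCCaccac
Hist1h2ac: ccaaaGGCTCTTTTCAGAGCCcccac
Hist1h2ao: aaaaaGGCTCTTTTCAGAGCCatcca
Hist1h3c: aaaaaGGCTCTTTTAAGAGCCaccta
Hist1h3g: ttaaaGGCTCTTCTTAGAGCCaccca
Hist1h4i: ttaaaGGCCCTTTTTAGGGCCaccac
Hist1h4h: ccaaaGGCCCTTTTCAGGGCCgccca
Hist1h4d: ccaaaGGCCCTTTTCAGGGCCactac

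The stem separated H4 from the other classes. All 34 stem-loops found in H1, H2A, H2B and H3 members had the stem that opens with GGCTCT, whereas none of the 12 found in H4 members did: 10 opened with GGCCCT and 2 with GGTCCT. There were 8 distinct sequences of 16 bases, and the most common was shared by 26 members of 4 classes. Annotated transcripts ended more than 100 bases past the stem-loop in 23 members and within 100 bases of it in the other 23. Of the 21 members without the pattern, 17 had at most 48 annotated bases after the stop codon. The other 4 were Hist1h2bc, Hist2h2be, Hist1h2bq and Hist1h2br, with between 742 and 2192 bases.

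Few histone genes carried most of the histone counts. Over the 11 tumours the 67 members took 44485 counts, of which 69.6% fell on Hist1h1c and Hist1h2bc and 82.6% on 4 genes, the 2 just named with Hist2h2be and Hist1h4i. A further 21 members had at least 100 but under 1000 counts in all, 38 had fewer than 100, and 4 (Hist1h2aa, Hist1h2br, Hist2h2aa1 and Hist2h3c1) had none in any tumour. A count of 0 allows up to 3 counts, or between 0.0887 and 0.250 CPM per tumour (CPM are counts scaled to a common TMM-adjusted library size; counting error only). By class, H1 held 42.3% of member counts, H2B 39.1%, H4 9.05%, H2A 7.24% and H3 2.35%. Counts were of uniquely aligned reads. Windows of about a read's length were cut from each member's transcripts. For 25 members more than 50% of the windows also occurred in transcripts of other genes. For 6 members, among them Hist2h2aa1 and Hist2h3c1, every window did, so that a low count of these copies is uncertain. Hist2h2aa1 and Hist2h3c1 are also overlapped on the same strand by Gm20634, over 90.3% and 100% of their exon bases. How reads in such overlaps were counted is not given in the sources used here.

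Level per length, in CPM per kilobase of annotated exon (RPKM, mean over 11 tumours), spanned a wide range. Hist1h2bc stood at 43.1 and Hist1h1c at 42.7 RPKM, and they did not differ beyond the spread between tumours. Below them followed Hist1h4i at 15.1, Hist1h2ao at 6.46, Hist2h2be at 4.30, Hist1h4h at 3.58 and Hist1h2ap at 3.07 RPKM. The last 4 overlapped in the spread between tumours. The highest H3 members were Hist1h3c at 1.22 and Hist1h3g at 1.07 RPKM, and the second of the tested H1 members, Hist1h1e, reached 0.525 RPKM. The 27 members with more than 150 annotated bases after the stop codon took 40907 counts (92.0%) and the 40 with fewer took 3578 (8.04%). This grouping was made after the data had been seen, but uses only the annotation. The typical member of either group was nevertheless low, with medians of 0.525 and 0.416 RPKM, and the excess lay in a few genes.

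**Figure D1:**
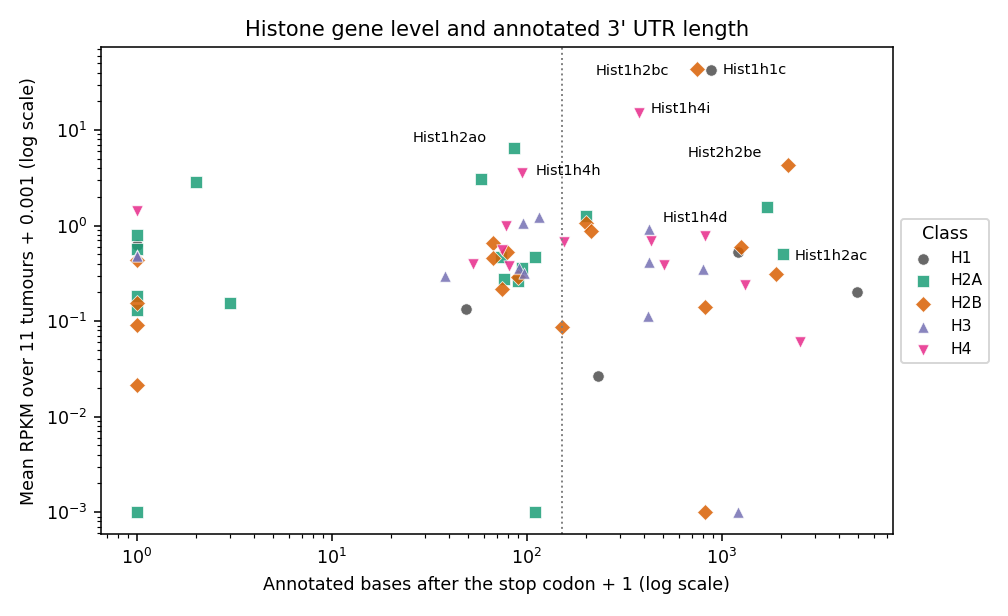
Mean RPKM of each of the 67 histone genes over 11 tumours (vertical, log scale, 0.001 added) against the number of annotated bases after the stop codon (horizontal, log scale, 1 added), by class; the dotted line marks 150 bases. Hist1h2bc (43.1 RPKM), Hist1h1c (42.7 RPKM) and Hist1h4i (15.1 RPKM) stand above all other members and lie right of the line, but many members right of the line are as low as those left of it.

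Even neighbouring genes differed in level. H2A and H2B genes often lie head to head, and 12 such pairs had start sites within 1000 bases of each other. Hist1h2ac and Hist1h2bc start 251 bases apart, yet had 0.503 and 43.1 RPKM. Hist2h2ac and Hist2h2be, with starts 239 bases apart, had 0.357 and 4.30 RPKM. In contrast, Hist1h2ae (1.27 RPKM) and Hist1h2bg (1.08 RPKM), 176 bases apart, were close in level.

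The replication-independent variants are made outside S phase as well, mostly from polyadenylated mRNAs. The most abundant of them in H3, H2A and H1, chosen after their values were seen, were far higher per length than the members. H3f3a and H3f3b, which both encode H3.3, together reached 433.4 RPKM, 71.8 times the sum over all 12 H3 members (6.04 RPKM). H2afz, encoding H2A.Z, was at 238.4 RPKM, 12.3 times the sum over the 18 H2A members (19.4 RPKM). H1f0, encoding the linker variant H1.0, was at 153.4 RPKM, 3.47 times the sum over the 6 H1 members (44.3 RPKM). These are ratios of RNA levels in these libraries, and how well RNA without a poly(A) tail was recovered was not tested. The sums also hold uniquely aligned reads only, so reads of near-identical copies can be missing from them. For example, 91.2% of the windows of Hist1h3h and 92.1% of those of Hist1h2ao also occurred in transcripts of other genes. The effect of this on the ratios was not tested.

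The libraries were then compared, since WT A, B and C stood apart from the other 8. Total counts lay between 16294128 (WT B) and 31121422 (WT E). The ribosomal RNA genes Gm42418, mt-Rnr1 and mt-Rnr2 took 1.31% of counts in WT A, 6.39% in WT B and 1.40% in WT C, against 0.241% to 0.765% elsewhere. In the same 3 tumours short genes were over-represented, with Spearman coefficients between gene length and deviation from the mean of -0.50, -0.45 and -0.17 across genes, against 0.10 to 0.37 in the other tumours. The labels give no batch. The main KO against WT results below are therefore also given without these 3 tumours, an alternative in which WT is left with D and E.

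Of all counts, the members together took 0.0159 ± 0.00274% in the 6 KO and 0.0176 ± 0.00390% in the 5 WT tumours (mean ± SD). The lowest, median and highest KO shares were 0.0125, 0.0158 and 0.0194%. WT tumours A to E had 0.0197, 0.0195, 0.0218, 0.0132 and 0.0136%. WT A, B and C were thus above every KO tumour, and WT D and E lay within the KO range. The 95% Wilson interval, covering counting error only, was 0.0189 to 0.0202% in the shallowest library, WT B, and 0.0192 to 0.0203% in WT A. Both overlapped that of KO E, the highest KO tumour (0.0188 to 0.0199%). The interval of WT C (0.0211 to 0.0224%) did not. The difference, KO minus WT, was -0.00166 percentage points with all tumours and 0.00250 without WT A, B and C, so that its sign depended on these 3 tumours.

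The split was wider for members with a short 3′ UTR. Their summed level was 19.0, 38.0, 22.6, 6.15 and 7.27 CPM in WT A to E, and 7.93, 12.0 and 14.02 CPM as the lowest, median and highest KO tumour. WT tumours therefore lay on both sides of the KO range: A, B and C above it, D and E below it. The WT D and E sums rested on 157 and 246 counts. The 95% Wilson intervals of their shares of all counts were 0.000566 to 0.000774% and 0.000698 to 0.000896%. Both overlapped that of KO D, the lowest KO tumour (0.000744 to 0.000984%). The long 3′ UTR members summed to 194.7, 227.6, 209.8, 116.8 and 117.4 CPM in WT A to E, against 107.0 to 170.2 CPM in KO tumours, so that WT D and E fell within the KO range.

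**Figure D2:**
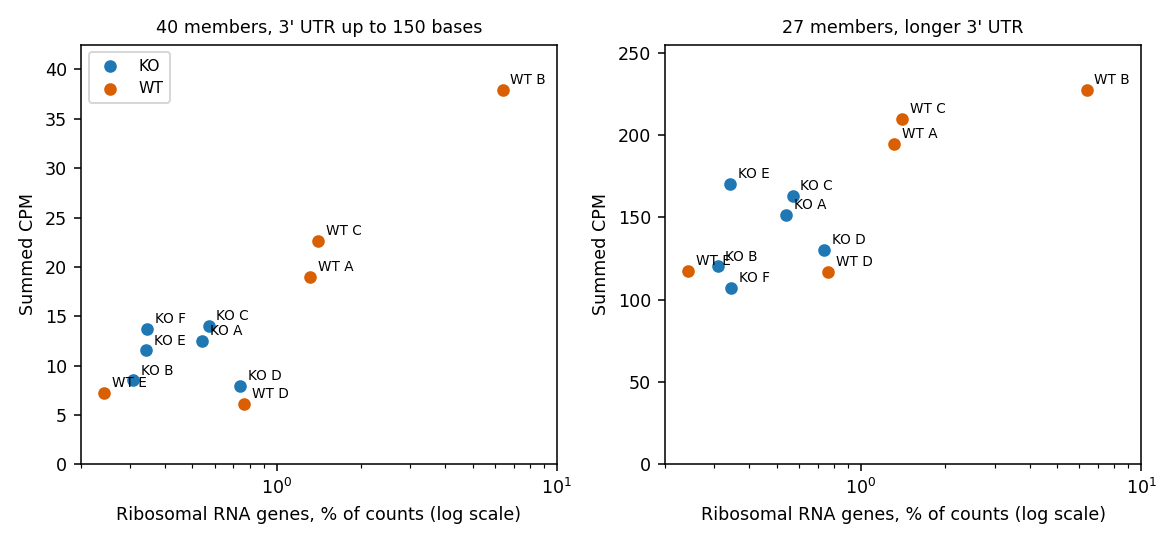
Summed CPM of the 40 histone genes with a short annotated 3′ UTR (left) and the 27 with a longer one (right), against the percentage of counts on 3 ribosomal RNA genes (log scale), with 1 point per tumour. WT A, B and C have the highest values on both axes (1.31 to 6.39% ribosomal RNA); among the other 8 tumours the short 3′ UTR members lie between 6.15 and 14.02 CPM.

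Expression by class was compared next. For H1 summed levels averaged 67.3 ± 14.9 CPM (KO) and 72.7 ± 19.5 CPM (WT), the smallest relative difference of the 5 classes. For H2A they were 10.5 ± 1.84 and 15.8 ± 9.69 CPM, and for H2B 59.8 ± 9.84 and 74.3 ± 24.6 CPM. For H3 they were 3.21 ± 0.502 and 5.25 ± 2.57 CPM, and for H4 10.8 ± 1.43 and 23.8 ± 16.3 CPM (SD throughout). KO tumours were the more uniform group in every class. WT A, B and C exceeded all KO tumours in H2A, H2B, H3 and H4, whereas in H1 WT B, at 69.8 CPM, lay within the KO range of 47.7 to 85.3 CPM. H4 showed the widest split, with 26.5, 48.6, 25.6, 6.07 and 12.4 CPM in WT A to E and 8.86 to 12.5 CPM in KO tumours.

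**Figure D3:**
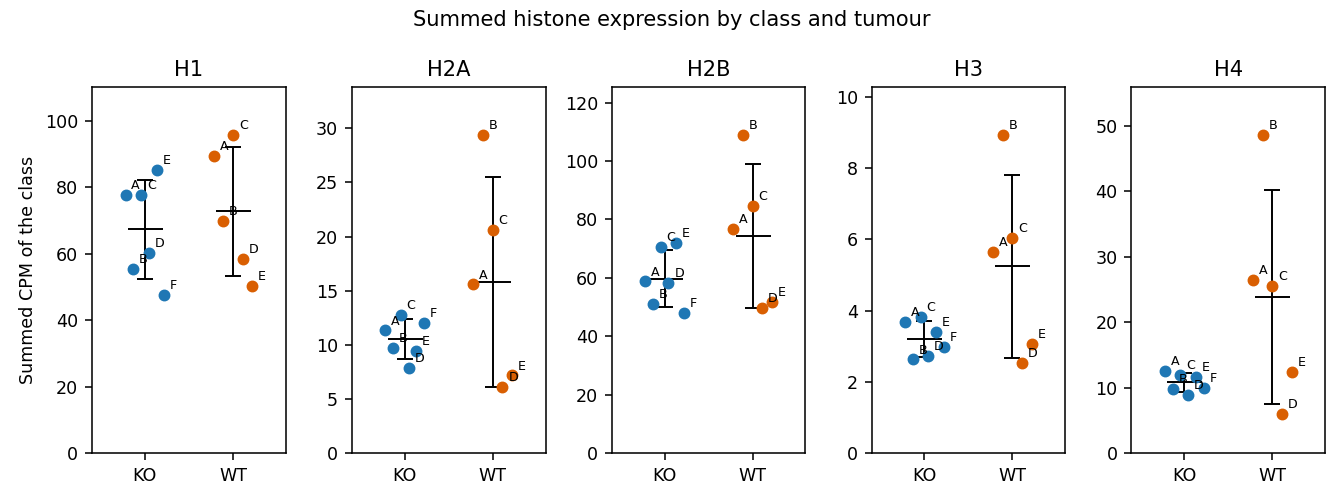
Summed CPM of the members of each histone class (vertical axes from 0, 1 panel per class) in 6 KO and 5 WT tumours, with 1 lettered point per tumour, a bar at the group mean and whiskers of 1 SD. In H2A, H2B, H3 and H4 the WT tumours A, B and C lie above every KO tumour, while WT D and E lie within or below the KO range.

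The class sums varied together over tumours, in part through WT A, B and C. On log2 class sums, the 10 pairs of classes had a median Pearson r of 0.87 over 11 tumours, from 0.52 (H1 and H2A) to 0.98 (H3 and H4), and a median Spearman rho of 0.79. Since WT A, B and C form a separate cluster in most classes, the value over all 11 tumours rests in part on them. Leaving them out raised r from 0.72 to 0.90 for H1 and H2B and from 0.60 to 0.70 for H1 and H3. For every other pair it lowered r. Without the 2 tumours farthest from the median the median r was 0.68, and over the 8 tumours other than WT A, B and C it was 0.65 (rho 0.51). Within the 6 KO tumours the median r was 0.66 (rho 0.60). There H3 and H4 kept an r of 0.92 and H1 and H2B of 0.92, but H2A and H2B had 0.005 and H1 and H2A 0.06. The H1 and H2B sums are mostly Hist1h1c and Hist1h2bc. All points share library depth and composition, and these coefficients are given as description.

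KO and WT tumours were then compared gene by gene with the edgeR quasi-likelihood test, fitted to the whole table. Of the 67 members, 23 passed the filter on low counts, 3 for H1, 6 for H2A, 6 for H2B, 3 for H3 and 5 for H4. At an adjusted p under 0.05, 0 of 23 members were called, where 3 of 16536 genes tested (0.0181%) were. At an unadjusted p under 0.05, 0 members were higher in KO tumours, against 8.57% of all genes, and 3 were lower, against 15.5% of all genes. Non-overlap of the groups in CPM was seen for 0 of the 23 tested members in either direction, against 1.59% of all genes tested higher and 2.01% lower. Among the untested members, Hist1h3f, with 38 counts in all, was at most 0.122 CPM in KO tumours and at least 0.147 CPM in WT tumours. DESeq2 gave an adjusted p to 44 members and called 0, where it called 3.21% of all genes higher and 4.85% lower; at an unadjusted p under 0.05 it had 9 of 63 members lower, against 10.3% of all genes. These p-values set the difference between the group means against the spread between tumours within each group.

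Although none passed the threshold, 19 of 23 members had a lower mean in KO tumours, with a median log2 fold change of -0.49 (range -1.75 to 0.37) beside -0.03 over all genes tested. Over the 343 protein-coding genes tested with under 1000 bases of exon, which include the tested members of that length, the median was -0.69. Of these genes, 17 were higher and 138 lower at an unadjusted edgeR p under 0.05. Not all tested members are this short, and Hist1h1d has 7425 bases of exon. Without WT A, B and C the direction turned, with 21 of 23 members higher in KO tumours and a median of 0.31. Adding the ribosomal RNA share to the model gave a median of -0.08, and the gene length trend of each tumour as an offset gave -0.16. In bulk tumours, fewer cells with a transcript and less of it per cell cannot be told apart, and the part of library composition in these values was not tested beyond these fits.

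**Figure D4:**
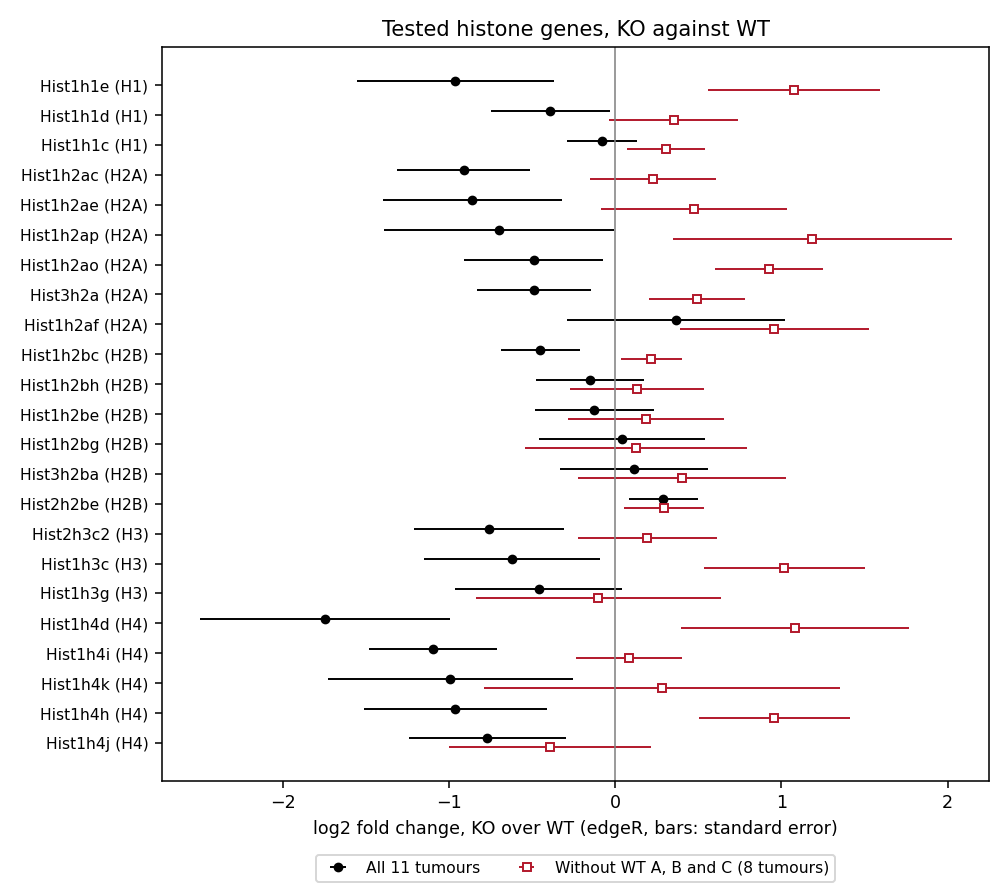
Log2 fold change, KO over WT, of the 23 tested histone genes with its standard error (edgeR), for all 11 tumours (filled circles) and without WT A, B and C (open squares). With all tumours 19 of 23 are below 0, and without the 3 WT tumours 21 of 23 are above 0.

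Among the linker histones, Hist1h1c (chr13:23738808-23740367, plus strand; H1f2 in current nomenclature) encodes H1.2, and its annotated transcript runs 840 bases past the stem-loop shown above. It was at 45.1, 66.6 and 83.2 CPM in the lowest, median and highest KO tumour and at 84.6, 61.0, 92.3, 56.8 and 48.7 CPM in WT A to E. The groups overlapped and had almost the same mean (65.0 ± 14.9 and 68.7 ± 18.8 CPM). The fitted difference, KO over WT, was -0.08 on the log2 scale (standard error, SE, 0.21; edgeR adjusted p = 0.844). Hist1h1e (chr13:23620629-23622558, minus strand; H1f4), encoding H1.4, was far lower, at 0.350 to 0.967 CPM in KO tumours (median 0.743) and 1.30, 3.75, 1.28, 0.392 and 0.266 CPM in WT A to E. Here WT A, B and C lay above every KO tumour, while WT E lay below all of them. Its log2 fold change was -0.96 (SE 0.59, edgeR adjusted p = 0.333) and 1.07 without WT A, B and C (edgeR adjusted p = 0.326). Of its exon bases, 25.7% are overlapped on the same strand by other annotated genes. The third tested member, Hist1h1d, had -0.39 (edgeR adjusted p = 0.514).

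The H2A members with the highest level per length were Hist1h2ao (chr13:21810465-21810944, plus strand) and Hist1h2ap (chr13:21833026-21833507, minus strand). They shared 92.1% and 91.6% of their windows with other transcripts, so that their counts are uncertain. Where along each gene the counts fell was not examined. Hist1h2ao was at 1.71 to 3.26 CPM in KO tumours (median 2.61) and at 3.73, 6.59, 5.41, 1.33 and 1.42 CPM in WT A to E. WT A, B and C were above the KO range and WT D and E below it, which left a log2 fold change near -0.49 (SE 0.42, edgeR adjusted p = 0.483). Without WT A, B and C it was 0.92, at an unadjusted edgeR p of 0.0190 and an adjusted p of 0.200, the only member at an unadjusted p under 0.05 in that fit. Hist1h2ap was at 0.406 to 2.99 CPM in KO tumours (median 0.649) and at 1.35, 5.17, 1.97, 0.431 and 0.562 CPM in WT A to E. The highest KO tumour, KO C, exceeded all WT tumours but B, and the log2 fold change was -0.70 (SE 0.69, edgeR adjusted p = 0.552).

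Hist1h2ac (chr13:23681467-23683948, minus strand; H2ac6) was 1 of the 3 members lower at an unadjusted p under 0.05. Its stem-loop is followed by 2010 further annotated bases. It was at 0.645 to 1.25 CPM in KO tumours (median 0.888) and at 2.04, 2.17, 2.70, 0.627 and 0.887 CPM in WT A to E. WT D was below all KO tumours and WT E near their median. The log2 fold change was -0.91 (SE 0.40, unadjusted p = 0.0394, edgeR adjusted p = 0.187) and 0.23 without WT A, B and C (edgeR adjusted p = 0.789). Another H2A member, Hist1h2af, chosen after its values were seen, did not follow this pattern. It was at 0.174, 0.250, 3.19, 0.548 and 0.768 CPM in WT A to E, with KO tumours between 0.702 and 2.17 CPM. WT A and B were thus the lowest of all tumours and WT C the highest. The WT A and B values rested on 4 and 3 counts, and 66.9% of the windows of Hist1h2af were shared with other transcripts. Its log2 fold change was 0.37 (SE 0.66, edgeR adjusted p = 0.756).

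Of the H2B members, Hist1h2bc (chr13:23684199-23692908, plus strand; H2bc4) has 742 annotated bases after the stop codon with no stem-loop found in them. It was at 34.2, 42.0 and 53.2 CPM in the lowest, median and highest KO tumour and at 59.5, 92.1, 66.7, 34.6 and 39.2 CPM in WT A to E. WT A, B and C were above every KO tumour, and WT D and E at the lower end of the KO range. The log2 fold change was -0.45 (SE 0.24, edgeR adjusted p = 0.263) and 0.22 without the 3 tumours (edgeR adjusted p = 0.569). Hist2h2be (chr3:96221119-96223738, plus strand; H2bc21), with 2192 annotated bases after the stop codon and 0% of its windows shared, went the other way. It was at 9.51 to 15.9 CPM in KO tumours (median 12.0) and at 9.37, 7.76, 12.97, 12.1 and 8.01 CPM in WT A to E. WT B was here the lowest tumour, although the groups overlapped. The estimate, 0.29 on the log2 scale (SE 0.21, edgeR adjusted p = 0.401), was 0.29 also without WT A, B and C (edgeR adjusted p = 0.554). The other 4 tested H2B members lay between -0.15 and 0.11.

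The H3 members were low throughout. Hist1h3c (chr13:23744973-23745602, minus strand; H3c3) was at 0.406 to 0.934 CPM in KO tumours (median 0.566) and at 1.30, 2.25, 0.688, 0.235 and 0.355 CPM in WT A to E, with WT A and B above and WT D and E below all KO tumours. Its log2 fold change was -0.62 (SE 0.53, edgeR adjusted p = 0.484), and 1.02 without WT A, B and C (edgeR adjusted p = 0.321). Hist1h3g (chr13:23535422-23535951, plus strand; H3c8) was at 0.0403 to 0.853 CPM in KO tumours (median 0.519), where the lowest, KO F, rested on 1 count, and at 0.911, 0.751, 0.639, 0.627 and 0.414 CPM in WT A to E. The groups overlapped, and the log2 fold change was -0.46 (SE 0.50, edgeR adjusted p = 0.589).

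All 5 tested H4 members had a lower mean in KO tumours, with a median log2 fold change of -0.99, and 2 of them were at an unadjusted p under 0.05. Hist1h4i (chr13:22040636-22041362, minus strand; H4c9), by far the highest H4 member, was at 6.06, 6.90 and 8.89 CPM in the lowest, median and highest KO tumour and at 18.3, 31.2, 14.4, 4.03 and 9.66 CPM in WT A to E. All WT tumours but D exceeded every KO tumour, and WT D was below all of them. It had the smallest p of the members, and the log2 fold change was -1.10 (SE 0.39, unadjusted p = 0.0140, edgeR adjusted p = 0.126; DESeq2 adjusted p = 0.0622). Leaving out WT D gave -1.34 and an edgeR adjusted p of 0.0442, in a fit that called 3.87% of all genes lower, whereas leaving out WT A, B and C gave 0.08 (edgeR adjusted p = 0.916).

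Hist1h4d (chr13:23581598-23582735, plus strand; H4c4) was at 0.122 to 0.564 CPM in KO tumours (median 0.487) and at 1.61, 4.51, 0.835, 0.313 and 0.0887 CPM in WT A to E. The WT values covered the wider range, with WT E, at 3 counts, below every KO tumour. The log2 fold change was -1.75 (SE 0.75, unadjusted p = 0.0372, edgeR adjusted p = 0.182) and 1.08 without WT A, B and C (edgeR adjusted p = 0.442). Hist1h4h (chr13:23531050-23531519, plus strand; H4c8), whose annotated transcript ends 46 bases past the stem-loop, was at 0.805 to 1.95 CPM in KO tumours (median 1.01) and at 1.82, 2.92, 5.55, 0.548 and 0.650 CPM in WT A to E. WT C was the highest here and WT D and E were below all KO tumours. The log2 fold change was -0.96 (SE 0.55, edgeR adjusted p = 0.296), and 0.96 without WT A, B and C (edgeR adjusted p = 0.320).

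Over the tested members, WT B was the highest tumour for 13 of 23, and for 9 of 23 the 3 highest tumours were WT A, B and C. A KO tumour was highest for 3, and WT D was lowest for 7. The spread between tumours was wide in both groups. The median coefficient of variation of CPM over the tested members was 33.6% in KO and 52.7% in WT tumours, beside 18.6% and 38.4% over all genes tested and 29.7% and 65.5% over the protein-coding genes with under 1000 bases. The median biological coefficient of variation fitted by edgeR was 0.491 for the members, 0.478 for the short genes and 0.330 for all genes. The 7 tested members with a short 3′ UTR varied more, with medians of 53.1% in KO and 85.9% in WT tumours. The medians were 30.4% and 47.8% for the 16 tested members with a longer one. These values include counting error, which is large for members with few counts. The median biological coefficient of variation was 0.624 for the short and 0.450 for the longer group.

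Other RNAs that lack poly(A) tails were examined beside the members. Of 9 such genes, 4 had 0 counts in every tumour and 2 were tested. Rn7sk, the RNA of the 7SK complex that holds the elongation factor P-TEFb inactive, was at 10.8, 69.1, 7.27, 3.76 and 0.621 CPM in WT A to E and at 1.93 to 9.11 CPM in KO tumours (log2 fold change -2.15, edgeR adjusted p = 0.157). Scarna2, a small Cajal body RNA, had a log2 fold change of -1.67 (edgeR adjusted p = 0.159). The ribosomal RNA genes had -2.43 (Gm42418, edgeR adjusted p = 0.0976), -2.76 (mt-Rnr1, edgeR adjusted p = 0.0997) and -2.48 (mt-Rnr2, edgeR adjusted p = 0.120). DESeq2 called Gm42418 lower and neither Rn7sk nor Scarna2, and gave no adjusted p to mt-Rnr1 and mt-Rnr2.

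Histone variants and the genes that make, process and load histones were taken from lists. Of 11 replication-independent variants, 0 passed the edgeR threshold, 3 were lower at an unadjusted p under 0.05 and the median was -0.35. The smallest p were those of H2afv (log2 fold change -1.09, edgeR adjusted p = 0.0907) and H2afj (-1.16, edgeR adjusted p = 0.0997), which DESeq2 called lower. Their list summed to 3357, 4261, 2929, 2217 and 2112 CPM in WT A to E and 2217 to 2652 CPM in KO tumours, and so was also highest in WT A, B and C. Of 15 genes of histone transcription and mRNA processing, 0 passed and 1 was lower at an unadjusted p under 0.05, with a median of 0.02. Lsm11 and Lsm10, components of the U7 particle that guides histone mRNA cleavage, had -0.42 (edgeR adjusted p = 0.172) and -0.62 (edgeR adjusted p = 0.214). In this list DESeq2 called 0 genes. Of 12 histone chaperones, 0 passed, 0 were at an unadjusted p under 0.05, and the median was -0.13; Hat1, which acetylates new H4, had -0.39 and Nap1l4 0.22 (edgeR adjusted p = 0.229 and 0.335). DESeq2 called 0 of these as well.

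Of 22 S phase genes, 0 passed the edgeR threshold, 1 was higher and 3 lower at an unadjusted p under 0.05, and the median log2 fold change was -0.15. Pola1, a subunit of DNA polymerase alpha, had 0.65 (edgeR adjusted p = 0.105) and was the gene DESeq2 called, and Tk1, thymidine kinase, had -0.51 (edgeR adjusted p = 0.126). The S phase genes summed to 1887, 1550, 1248, 1609 and 1633 CPM in WT A to E and 1142 to 1695 CPM in KO tumours. On the same scale the members summed to 213.7, 265.5, 232.4, 122.9 and 124.7 CPM in WT A to E and 120.7 to 181.8 CPM in KO tumours. WT C had a histone sum above every KO tumour but the second lowest S phase sum of all tumours. WT A also had a histone sum above every KO tumour, with the highest S phase sum. The part of S phase in the histone values was not tested. Of 8 mitotic genes, 0 passed, with 1 higher and 1 lower at an unadjusted p under 0.05, a median of -0.002 and 0 DESeq2 calls. Birc5 had -0.86 (edgeR adjusted p = 0.116) and Mki67 0.56 (edgeR adjusted p = 0.203). Their sums were 684.8, 529.5, 536.9, 613.9 and 696.7 CPM in WT A to E, within the KO range of 455.4 to 755.6 CPM.

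Markers of the cell types in the tumours were examined beside these values, and edgeR called 0 of them. At an unadjusted p under 0.05, all 4 B cell markers were higher in KO tumours (29.7 to 90.3 CPM summed, against 5.76 to 27.5 in WT), as were 2 of 4 macrophage, 3 of 4 neutrophil and 1 of 3 tested erythroid markers. Of 7 carcinoma epithelium markers, 3 were lower (2683 to 5446 CPM summed in KO and 3087 to 9319 in WT tumours), and of 2 tested acinar markers 1 was lower. DESeq2 called the 4 B cell markers, 2 erythroid, 1 macrophage and 1 neutrophil marker higher and 1 acinar marker lower. No fibroblast, T cell or endothelial marker was at an unadjusted p under 0.05, and no islet marker passed the filter. Every marker had a count in some tumour. Carcinoma markers summed to 9319, 3087 and 7045 CPM in WT A, B and C, so that WT B, with the highest H2A, H2B, H3 and H4 sums, had the lowest WT value. The part of cell type shares in the histone values was not tested.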

How the data were processed

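Per the labels and the methods of the study, total RNA from tumour pieces was made into strand-specific libraries (NEB Next Ultra II Directional) and sequenced in pairs. After trimming (Trimmomatic), reads were mapped to mm10 by HISAT2 2.1.0 and counted over exons with HTSeq 0.11.2, keeping uniquely aligned reads. The authors deposited raw counts per gene and, as a separate table, normalised signal, the counts divided by 1 factor per tumour; the raw counts were used here, and the factors only for summed levels as an alternative.

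Members and lists were chosen with earlier results of these data known. Groups and letters came from sample titles. edgeR 4.0.16 (R 4.3.3; quasi-likelihood test, TMM, filterByExpr with about 0.416 CPM in at least 5 tumours, no covariate, Benjamini-Hochberg over 16536 genes) gave the main test and DESeq2 1.42.0 an alternative; the code was tested on simulated data. CPM used TMM-scaled totals, and RPKM the merged exon length in GENCODE M21. Class sums were correlated as log2(CPM + 0.5). Windows of 128 bases were compared among annotated transcripts, not across the genome, and encoded proteins were not compared. Wilson intervals (95%) cover counting error only. No 2 libraries agreed within sampling noise (lowest chi-square per degree of freedom 36.8). The genes named with values in every tumour were the 2 tested members of each class with the highest mean RPKM, any past the threshold, and up to 5 in each direction with the smallest p under 0.05; in related lists, up to 2 by smallest p and all 3 ribosomal RNA genes. Other settings were another scaling, filter and tool, a replicate block, the ribosomal RNA share, gene length, and leaving out tumours. Fits without WT A, B and C for shares and class agreement, the DESeq2 fits that leave out 1 tumour, and sums over short 3′ UTR members were added after seeing the data.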

Additional observations from a re-analysis of the deposited data

Results flagged for a closer look

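Among 42 groups of values examined (levels, shares and sums within KO or WT tumours), 1 held a tumour far from the rest of its group, where about 2.1 would be met by chance. The ribosomal RNA share of WT B was 6.39% of counts, against 0.241 to 1.40% in the other 4 WT tumours, a gap of 0.811 of the range of the group. WT B was also the highest tumour for 13 of 23 tested histone genes.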

How the results depend on the processing

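The number of members past the adjusted threshold stayed at 0 under every planned fit except without WT D, where edgeR called 1 of 26 (Hist1h4i, log2 fold change -1.34, adjusted p = 0.0442; range over fits that leave out 1 tumour 0 to 1); that fit called 3.87% of all genes lower. DESeq2 called 0 to 4 members lower when 1 tumour was left out: 1 of 49 without KO C, 4 of 53 without WT D and 2 of 50 without WT E, where 2.80%, 8.92% and 11% of all genes were called lower. Members lower at an unadjusted p under 0.05 are given here with the share of all genes lower in the same fit. They numbered 3 of 23 in edgeR (15.5%), 9 of 63 by DESeq2 (10.3%), 5 of 63 with no filter (9.63%) and 1 of 23 with total counts as the only scaling (9.68%). There were 0 of 23 with the replicate block (7.9%), the ribosomal RNA covariate (6.63%) or the length offset (13.8%), and 0 of 24 without WT A, B and C (9.01%). Leaving out 1 tumour in edgeR gave 0 to 8. These were 0 of 23 without WT B (9.59%), 8 of 26 without WT D (18.1%) and 7 of 24 without WT E (19.1%). Members higher numbered 0 to 1 when 1 tumour was left out. There was also 1 of 24 higher without WT A, B and C, where 1445 of 17605 genes were.

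The median log2 fold change of members was -0.49, -0.083 with the ribosomal RNA covariate, 0.31 without WT A, B and C, and -0.70 to -0.22 when 1 tumour was left out. Total counts as the only scaling moved the median of all genes from -0.03 to 0.11 and that of members to -0.30. Without WT A, B and C, log2 fold changes changed sign for Hist1h1c (0.31), Hist1h1e (1.07), Hist1h2ao (0.92), Hist1h2ap (1.19), Hist1h2bc (0.22), Hist1h3c (1.02), Hist1h4i (0.083), Hist1h4h (0.96), Hist1h4d (1.08) and Hist1h2ac (0.23). They did so with the ribosomal RNA covariate for Hist1h1e (0.17), Hist1h2ao (0.050), Hist1h2ap (0.44) and Hist1h3c (0.18). With the length offset this held for Hist1h1c (0.23), Hist1h2ao (0.16), Hist1h2ap (0.083), Hist1h2bc (0.018) and Hist1h3c (0.086). Hist1h1c, near 0 throughout, was at 0.074 with total counts only, 0.026 with the replicate block and -0.18 to 0.052 when 1 tumour was left out, above 0 without KO F, WT A or WT C. Leaving out 1 tumour moved Hist1h2ap from -1.29 to 0.092, the last without WT B.

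The share of counts on members, KO minus WT, was 0.00250 percentage points without WT A, B and C, and that on short 3′ UTR members went from -0.000434 to 0.000462. The median r between classes was 0.68 without the 2 farthest tumours, 0.66 in KO tumours, 0.65 without WT A, B and C and 0.80 over short 3′ UTR members. Tumours with the same letter came from different animals. The correlations of their deviations lay between -0.13 and 0.11, and only letter A matched best with itself. The letters were therefore not taken as pairs. With the block the 3 unadjusted calls fell to 0, and the share of all genes lower fell from 15.5% to 7.9%. The cause of these shifts was not tested. The 44 of 67 members that did not reach the filter level in at least 5 tumours were not tested by edgeR. Depth can limit them, and so can unique alignment where windows are shared, as for Hist2h2aa1 and Hist2h3c1, for which every window was. Which limit applied to each member was not tested.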
